A study of Mus musculus with 24 samples.

Results

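Hmgcs1, Idi1, Fdps, Fdft1, Sqle, Lss, Cyp51 and Msmo1 encode 8 enzymes of cholesterol synthesis, and their mRNA levels were followed in mouse lung after birth. They were found by matching the RefSeq transcript named for each array probe to a gene symbol, which gave 8 of the 19722 genes named on the array, with 9 probes, and 8 of the 15895 genes that passed the filter on dim probes. In RefSeq, Hmgcs1 and Idi1 lie on chromosome 13, Fdps on 3, Fdft1 on 14, Sqle on 15, Lss on 10, Cyp51 on 5 and Msmo1 on 8. Whole lungs of healthy C57BL/6 mice were sampled at postnatal days 1, 4, 7, 14 and 42, in 5 biological replicates at each of the first 4 ages and in 4 at day 42. The strain was the same at every age, and the labels give no treatment, sex or pooling and do not say whether each replicate was 1 animal. The title of the series calls the lungs fetal, whereas every sample is labelled postnatal. One day 14 sample is replicate 4 in its title and replicate 3 in its source name; its title was taken. Total RNA was labelled with Cy3 and hybridised to 1-colour Agilent arrays.

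Cholesterol is built from acetyl units through mevalonate and squalene, and the first sterol, lanosterol, is then trimmed to cholesterol. Hmgcs1 makes HMG-CoA, from which mevalonate is formed. Idi1 interconverts the isoprene building blocks, and Fdps joins them into farnesyl diphosphate, which also feeds protein prenylation and other branches. Fdft1 makes squalene and so commits the pathway to sterols, Sqle adds oxygen to squalene and Lss closes the rings to lanosterol. Cyp51 and Msmo1 remove methyl groups from the sterol. When membrane cholesterol is low, Scap escorts the transcription factor encoded by Srebf2 to the enzymes that free it, and it switches these genes on. When sterols are plentiful, Insig1 holds both back. Lung needs cholesterol for growing membranes and for surfactant, the lipid film that alveolar type 2 cells secrete.

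RefSeq promoter sequences on GRCm38.p6 were found for 5 of the 8 genes: Hmgcs1, Idi1, Lss, Cyp51 and Msmo1. The 250 bases before the start were searched on both strands for the sterol response letters TCACNCCA and TCACNCGA, where the factor of Srebf2 can bind, and for CCAAT and GGGCGG, the boxes of its partners NF-Y and Sp1. No match overlapped another. CCAAT stood in 5 of the 5 promoters and in 33.8% of all 32851 promoters of the table. GGGCGG stood in 5 of 5 and in 32.7% of all. TCACNCCA stood in 2 of 5, Msmo1 and Hmgcs1, and in 3.67% of all, and TCACNCGA in 0 of 5 and in 0.871% of all. Of the 11 promoters of other enzymes of the pathway, 10 held CCAAT, 10 held GGGCGG and 0 held either sterol response form. A match of letters is a description, not a site. Stretches of 3 genes are printed 5′ to 3′ on the strand of the gene, ending at the base before the start, with every match in capitals, to set the pair that holds a sterol response match beside one that holds only the partner boxes. They are Msmo1 (chr8:64733579-64733828, minus strand), Hmgcs1 (chr13:119690101-119690350, plus strand) and Lss (chr10:76531355-76531604, plus strand).
Msmo1: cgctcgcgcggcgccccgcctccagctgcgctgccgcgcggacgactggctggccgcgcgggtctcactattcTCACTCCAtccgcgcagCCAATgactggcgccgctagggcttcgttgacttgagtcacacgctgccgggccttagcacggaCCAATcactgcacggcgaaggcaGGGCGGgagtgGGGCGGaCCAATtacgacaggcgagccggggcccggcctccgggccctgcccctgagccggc
Hmgcs1: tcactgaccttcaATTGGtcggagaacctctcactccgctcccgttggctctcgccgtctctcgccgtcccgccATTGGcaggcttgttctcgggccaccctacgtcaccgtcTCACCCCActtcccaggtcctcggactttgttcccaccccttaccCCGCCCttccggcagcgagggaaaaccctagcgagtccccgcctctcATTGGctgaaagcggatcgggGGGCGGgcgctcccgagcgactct
Lss: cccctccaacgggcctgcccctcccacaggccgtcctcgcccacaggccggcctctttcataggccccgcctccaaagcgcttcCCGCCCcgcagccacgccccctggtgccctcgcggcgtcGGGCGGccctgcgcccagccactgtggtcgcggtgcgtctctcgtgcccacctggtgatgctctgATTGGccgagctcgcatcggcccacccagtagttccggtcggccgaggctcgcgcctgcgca
In Msmo1 the sterol response match lay 177 to 170 bases before the start, next to a CCAAT at 160 to 156. In Hmgcs1 it lay at 137 to 130, between a CCAAT at 176 to 172 and a GGGCGG at 92 to 87, both read on the opposite strand.

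Levels are log2 of the processed signal minus the 75th percentile of the same array, so a level of 0 equals that percentile and a level is compared only with the same probe on other arrays. Of the 9 probes, 8 were well above background on all 24 arrays, 1 for each gene. The other probe, the second for Fdft1, was well above background on 2 arrays of 24 and was not tested. Whole lung is a mixture, and fewer cells of a type cannot be told apart from less RNA per cell.

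The 24 arrays were not alike, and 5 of them differed from the rest. At day 1 they were replicates 4 and 5, at day 4 replicates 1 and 3, and at day 42 replicate 4. Their 75th percentiles of signal were 476 to 979, against 996 to 1653 on the other 19 arrays, and 50.4% to 56.0% of their spots were well above background, against 57.0% to 79.7%. The 79.7% was day 14 replicate 3, and the next highest of the 19 had 64.6%. On the first principal component, which held 49.8% of the variance of the 15895 genes tested, the lowest value of the 5 arrays was 100.3 and the highest of the other arrays 15.6. The 8 enzymes split on them. Fdps, Fdft1, Sqle and Lss lay above every other array of the same age on 5 of the 5, and Idi1 lay below every one on 5 of 5. Hmgcs1 and Cyp51 lay below on 4 of 5, while Msmo1 was within the range on 4 of 5 and above it on 1. Idi1, for instance, measured -0.58, 0.30, -0.41, 0.01 and 0.13 on these 5 arrays in the order named, and Fdps measured 5.56, 5.06, 4.57, 4.65 and 5.59. What makes these arrays differ was not tested. Day 14 replicate 5 stood above the other 4 arrays of its age in summed proliferation markers (40.8 against 16.9 to 17.9) and fibroblast markers (454 against 302 to 315), in units of the 75th percentile, and the fits were also run without it. Each comparison of the 8 enzymes that follows is given with all 24 arrays and with the other 19.

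**Figure D1:**
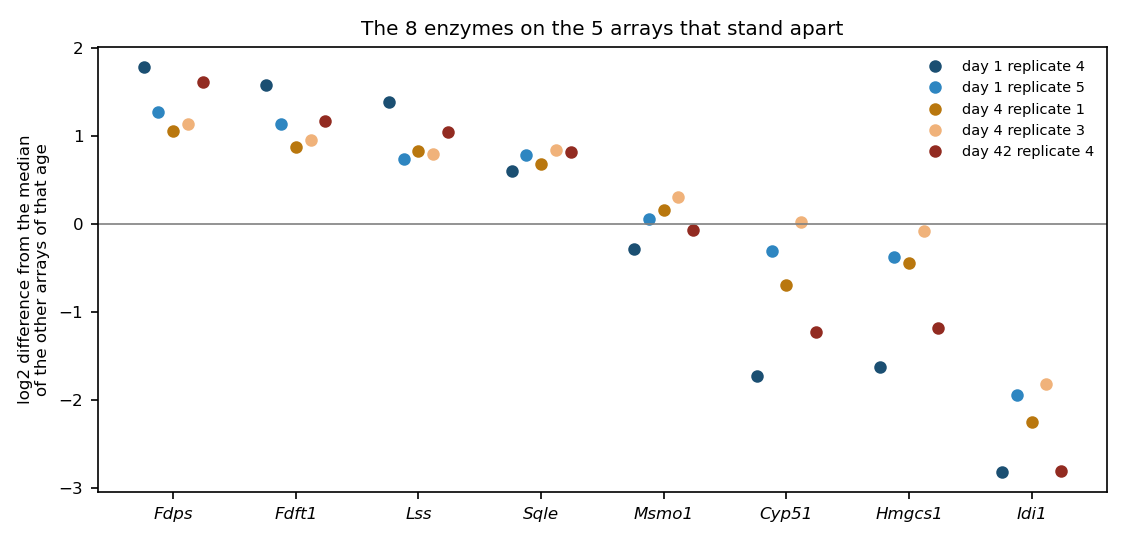
Each point is 1 enzyme on 1 of the 5 arrays that stand apart, as its log2 difference from the median of the other arrays of that age (vertical axis), with the enzymes along the horizontal axis and a colour per array. Fdps, Fdft1, Lss and Sqle lie above 0 on all 5 arrays and Idi1 lies far below 0 on all 5.

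The enzymes had their lowest means at days 7 and 14 and mostly their highest at day 42. On the 19 arrays the mean level was lowest at day 14 for 5 enzymes and at day 7 for 3, and highest at day 42 for 7 and at day 1 for Cyp51. Day 4 had the middle mean for 8 of 8. With all 24 arrays the lowest mean was at day 14 for 5 enzymes, at day 7 for Lss and Msmo1 and at day 4 for Idi1, and the highest was at day 42 for 5 and at day 1 for Fdft1, Sqle and Cyp51. A moderated F-test in limma over the 5 ages called 5 of the 8, namely Fdps, Fdft1, Sqle, Lss and Msmo1, against 31.8% of all genes tested, and did not call Hmgcs1 (adjusted p = 0.747), Idi1 (0.496) or Cyp51 (0.356). It called 8 of 8 on the 19 arrays, with adjusted p between 1.34e-05 and 0.00362, against 53.9% of all genes.

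**Figure D2:**
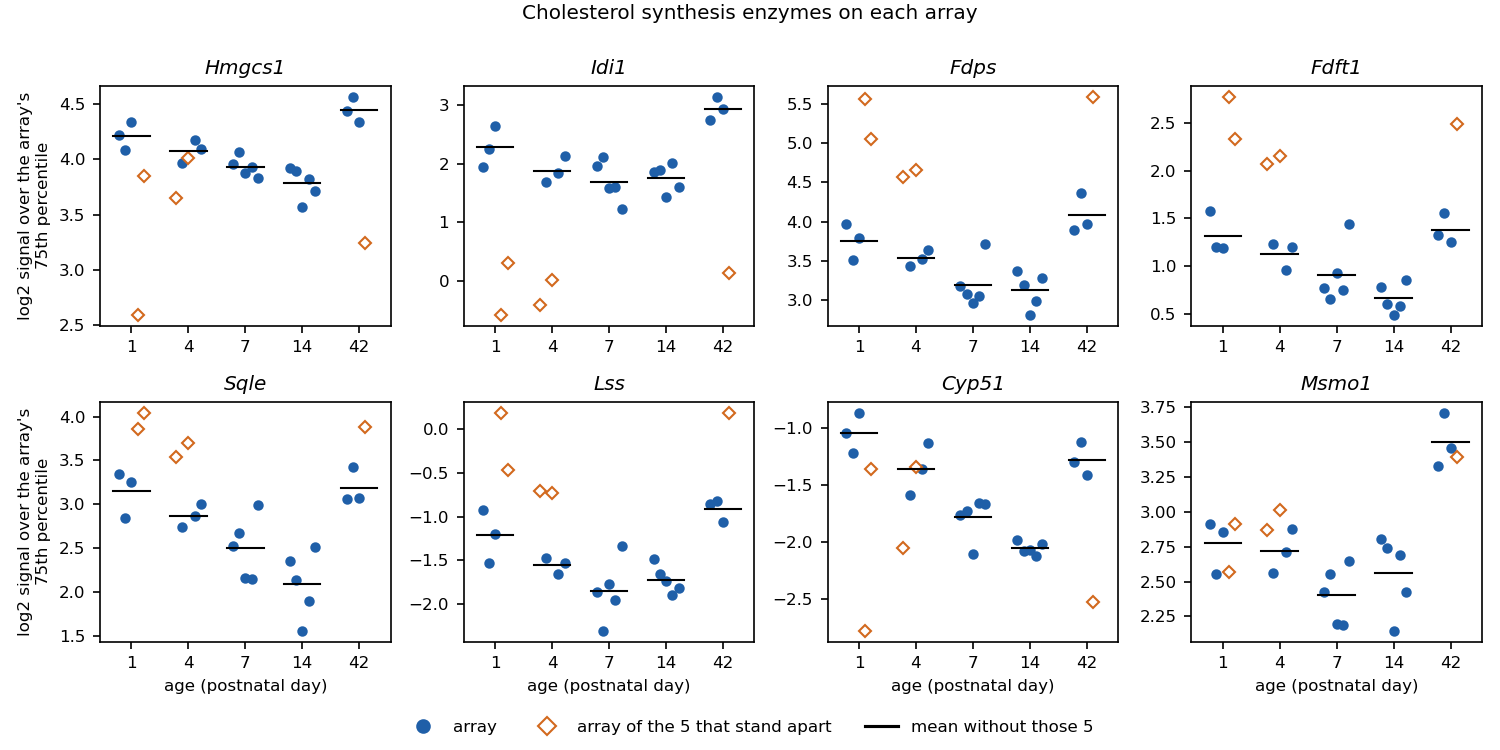
Log2 signal over the 75th percentile of the array (vertical axis, its own scale in each panel) for the 8 enzymes at postnatal days 1, 4, 7, 14 and 42. Filled points are the 19 arrays, open diamonds the 5 that stand apart, and lines the means of the 19. The lines fall to days 7 and 14 and stand higher at day 42, and the diamonds lie above them for Fdps, Fdft1, Sqle and Lss and below them for Idi1.

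Of the enzymes before squalene, Hmgcs1 had levels of 4.22, 4.09, 4.34, 2.60 and 3.84 at day 1 and 3.65, 3.96, 4.01, 4.18 and 4.10 at day 4, in replicate order. It had 3.96, 4.06, 3.88, 3.93 and 3.83 at day 7, 3.92, 3.89, 3.57, 3.82 and 3.72 at day 14 and 4.44, 4.56, 4.33 and 3.25 at day 42. Day 1 replicate 4 and day 42 replicate 4 were its lowest arrays, and day 42 replicates 1 to 3 stood above every day 14 array. Idi1 had 1.94, 2.24, 2.65, -0.58 and 0.30 at day 1 and -0.41, 1.68, 0.01, 1.83 and 2.12 at day 4. At day 7 it had 1.96, 2.11, 1.58, 1.61 and 1.22, at day 14 1.86, 1.90, 1.43, 2.00 and 1.60 and at day 42 2.75, 3.14, 2.94 and 0.13. Its 3 highest values of all arrays were day 42 replicates 1 to 3, and its lowest were on the 5 arrays that stand apart. Fdps had 3.96, 3.51, 3.78, 5.56 and 5.06 at day 1 and 4.57, 3.44, 4.65, 3.52 and 3.64 at day 4. It had 3.18, 3.07, 2.96, 3.05 and 3.72 at day 7, 3.37, 3.19, 2.82, 2.99 and 3.28 at day 14 and 3.90, 4.36, 3.97 and 5.59 at day 42. Every day 42 value of Fdps was above every day 14 value, also where the array that stands apart is left out.

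Of the enzymes of squalene and ring closure, Fdft1 had 1.58, 1.20, 1.19, 2.77 and 2.34 at day 1 and 2.06, 1.23, 2.15, 0.96 and 1.20 at day 4. It had 0.77, 0.66, 0.93, 0.75 and 1.44 at day 7, 0.78, 0.60, 0.49, 0.59 and 0.85 at day 14 and 1.32, 1.56, 1.25 and 2.49 at day 42. The day 14 values lay below every value of days 1, 4 and 42. Sqle had 3.34, 2.85, 3.26, 3.86 and 4.04 at day 1 and 3.54, 2.74, 3.70, 2.86 and 3.00 at day 4. It had 2.53, 2.68, 2.16, 2.15 and 2.99 at day 7, 2.36, 2.14, 1.56, 1.89 and 2.51 at day 14 and 3.06, 3.43, 3.07 and 3.89 at day 42. Its 5 day 14 values also lay below all values of days 1, 4 and 42, and day 14 replicate 3 was the lowest array of the 24. Lss had -0.92, -1.53, -1.19, 0.19 and -0.46 at day 1 and -0.70, -1.47, -0.73, -1.66 and -1.53 at day 4. It had -1.87, -2.31, -1.77, -1.95 and -1.34 at day 7, -1.49, -1.66, -1.74, -1.90 and -1.82 at day 14 and -0.86, -0.82, -1.07 and 0.19 at day 42. Its values at days 7 and 14 overlapped, and all 10 lay below all 4 values of day 42.

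Of the enzymes that trim lanosterol, Cyp51 had -1.05, -1.22, -0.87, -2.78 and -1.36 at day 1 and -2.06, -1.59, -1.34, -1.36 and -1.13 at day 4. It had -1.76, -1.73, -2.11, -1.65 and -1.67 at day 7, -1.98, -2.08, -2.07, -2.12 and -2.02 at day 14 and -1.30, -1.12, -1.41 and -2.53 at day 42. Its day 14 arrays were the most alike of any enzyme at any age, with an SD of 0.06, and its lowest values were on 2 of the arrays that stand apart. Msmo1 had 2.91, 2.55, 2.85, 2.57 and 2.91 at day 1 and 2.87, 2.56, 3.01, 2.71 and 2.88 at day 4. It had 2.42, 2.56, 2.20, 2.19 and 2.65 at day 7, 2.80, 2.74, 2.15, 2.69 and 2.43 at day 14 and 3.33, 3.71, 3.45 and 3.39 at day 42. All 4 day 42 values of Msmo1, the array that stands apart among them, were above all 20 values of the earlier ages.

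Day 42 against day 14 was the comparison in which the most enzymes rose. With all 24 arrays each of the 8 had a higher mean at day 42 than at day 14, with a median log2 difference of 0.95, against 0.07 over all genes tested. The limma fit called 2 of the 8 higher and 0 lower, while it called 2.18% of all genes higher and 1.51% lower. Msmo1 rose, with a mean of 3.47 ± 0.17 at day 42 and 2.56 ± 0.27 at day 14 (SD, n = 4 and 5), a log2 difference of 0.91 ± 0.16 (SE) and adjusted p = 0.00195. Sqle rose too, with 3.36 ± 0.39 at day 42 and 2.09 ± 0.38 at day 14, a difference of 1.27 ± 0.27 and adjusted p = 0.00955. The call of Msmo1 ended in the authors' deposited log2 values (0.73, adjusted p = 0.0604) and with only the 2 ages fitted (0.91, 0.0529). Fdps (1.32 ± 0.39, adjusted p = 0.0608), Lss (1.08 ± 0.31, 0.0531) and Fdft1 (0.99 ± 0.32, 0.0979) did not pass. For these 5 enzymes the day 42 and day 14 groups did not overlap, as for 7.64% of all genes in that direction. Hmgcs1, Idi1 and Cyp51, low on day 42 replicate 4, had differences of 0.36 ± 0.28, 0.48 ± 0.64 and 0.46 ± 0.31 and adjusted p of 0.638, 0.733 and 0.584. Scaling each array to its median in place of its 75th percentile moved the median of all genes from 0.07 to 0.28 and that of the 8 to 1.16, with the same number of enzymes called, and the share of called genes that were higher from 59.1% to 76.5%.

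On the 19 arrays, 8 of the 8 enzymes rose at day 42 against day 14 and 0 fell, while 6.73% of all genes were called higher and 6.82% lower. Their median difference was 0.87, against -0.03 over all genes, and the 3 day 42 arrays lay above the 5 day 14 arrays for 8 of 8, as for 10.9% of all genes. Idi1 had the largest difference of the 8, with 2.94 ± 0.20 at day 42 and 1.76 ± 0.24 at day 14 (SD, n = 3 and 5), which is 2.27-fold (log2 1.18 ± 0.20, adjusted p = 0.00119). Sqle was 2.13-fold higher (1.09 ± 0.22, adjusted p = 0.00343). Fdps was 1.93-fold higher (0.95 ± 0.17, 0.00188), and Msmo1 1.91-fold (0.93 ± 0.16, 0.00115). The other 4 rose less, between 1.58-fold for Hmgcs1 (0.66 ± 0.10, 0.000356) and 1.75-fold for Lss (0.81 ± 0.17, 0.00571). Single arrays moved the count of calls in the fit to all arrays, which called 2. Without day 1 replicate 2 that fit called 4, and without day 1 replicate 4 it called 5. Without day 4 replicate 1 it called 3.

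The arrays came on 3 slides of 8 that each held all 5 ages. Within slides 1, 2 and 3 the median difference of the 8 enzymes, day 42 minus day 14, was 0.59, 0.85 and 1.46. All 8 were higher at day 42 within slides 1 and 2. Within slide 3, where the only day 42 array is replicate 4, 5 were higher and Hmgcs1, Idi1 and Cyp51 lower, with -1.39 for Idi1. The median of all genes was -0.05, -0.01 and 0.48 within slides 1, 2 and 3.

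**Figure D3:**
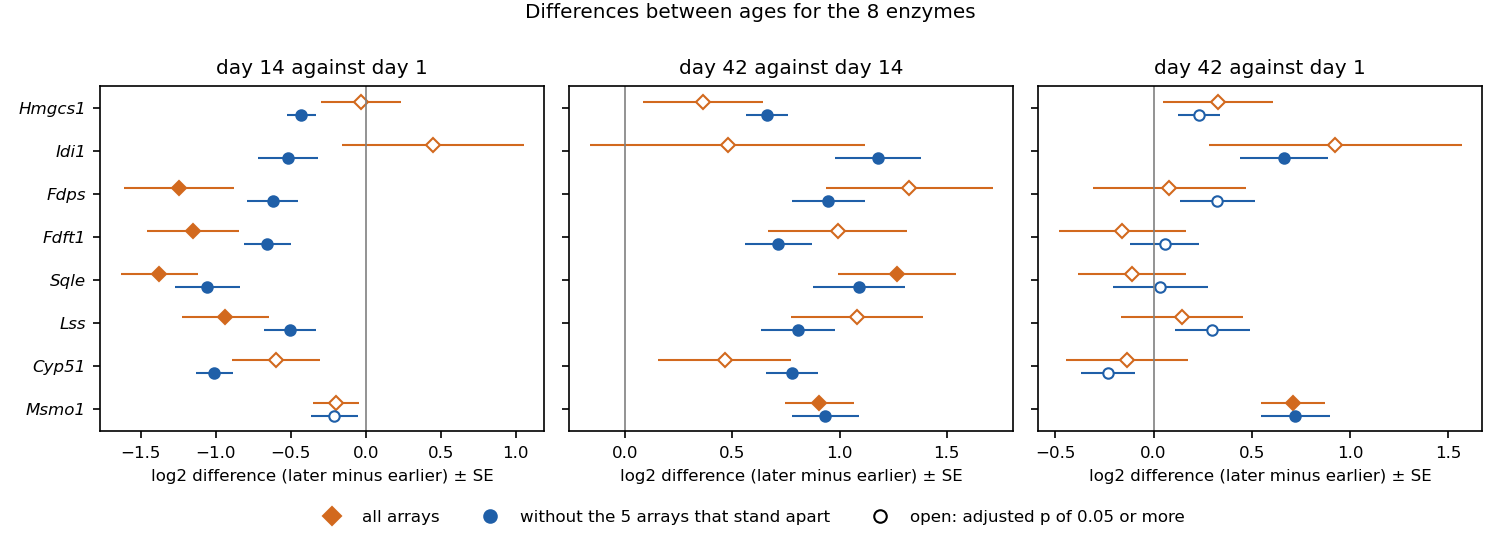
Log2 difference ± SE (horizontal axis, later minus earlier age) of each enzyme (vertical axis) for day 14 against day 1, day 42 against day 14 and day 42 against day 1. Diamonds are the fit to all arrays, circles the fit without the 5 that stand apart, and open symbols have an adjusted p of 0.05 or more. In the middle panel the 8 circles are filled and lie above 0.

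A comparison of day 14 with day 1 was added after the low means at days 7 and 14 were seen, so its tests are not independent of that choice. With all 24 arrays 4 enzymes fell and 0 rose, with a median difference over the 8 of -0.77 against -0.11 over all genes. The fit called 16.5% of all genes lower and 10.9% higher. Sqle fell by 1.38 on the log2 scale, to 2.09 ± 0.38 at day 14 against 3.47 ± 0.48 at day 1 (SD, n = 5 each, adjusted p = 0.000407). Fdps (-1.25 ± 0.37, adjusted p = 0.0156), Fdft1 (-1.15 ± 0.31, 0.00786) and Lss (-0.94 ± 0.29, 0.0206) fell as well. The groups did not overlap for 3 enzymes, Fdps, Fdft1 and Sqle, as for 10.2% of all genes in that direction. The calls of Fdps and Lss ended without day 1 replicate 4 (adjusted p of 0.0565 and 0.0723) and without day 1 replicate 5 (0.053 and 0.0572). Without day 1 replicate 4 Cyp51 was called instead (0.00481), so that fit called 3 and the other 2. Lss was also lost with only the 2 ages fitted (0.0572). Scaling to the array median moved the median of all genes from -0.11 to -0.38 and that of the 8 to -1.04, and the share of called genes that were higher from 39.6% to 22.1%.

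The 19 arrays gave 7 falls of 8 at day 14 against day 1 and 0 rises, while 20.1% of all genes were called lower and 21.2% higher. The median difference was -0.57, against 0.04 over all genes, and the groups did not overlap for 5 of 8, as for 15.1% of all genes. Sqle and Cyp51 had the largest falls, of -1.06 ± 0.22 (adjusted p = 0.00104) and -1.01 ± 0.12 (adjusted p = 9.32e-06). Idi1 turned direction: its difference was 0.45 ± 0.61 with all arrays (adjusted p = 0.58) and -0.52 ± 0.20 without the 5 (adjusted p = 0.0472), a call made in 1 of 36 alternatives and not when day 14 replicate 5 was left out too. Msmo1 was the enzyme that did not pass, with -0.21 ± 0.16 (adjusted p = 0.301). Within slides 1, 2 and 3 the median difference of the 8 was -0.59, -0.80 and -0.72, with 5, 7 and 8 enzymes lower at day 14.

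Day 42 against day 1 compares the ends of the series. With all arrays 1 of 8 rose and 0 fell, and 13.0% of all genes were called higher and 13.7% lower. That gene was Msmo1, with 3.47 ± 0.17 at day 42 and 2.76 ± 0.18 at day 1 (SD, n = 4 and 5), a difference of 0.71 ± 0.16 and adjusted p = 0.00187. This call ended with median scaling (adjusted p = 0.0584) and with only the 2 ages fitted (0.0582). It was the 1 enzyme whose groups did not overlap, as for 8.64% of all genes. Without the 5 arrays 2 rose and 0 fell, against 22.6% and 24.1% of all genes, and these 2 did not overlap, as for 26.7%. They were Msmo1 (0.72 ± 0.18, adjusted p = 0.00287) and Idi1, which had 2.94 ± 0.20 at day 42 and 2.28 ± 0.36 at day 1 (difference 0.66 ± 0.22, adjusted p = 0.0225). Idi1 was also called when day 42 replicate 4 alone was left out (adjusted p = 0.0384). The other 6 had differences between -0.23 ± 0.14 for Cyp51 and 0.33 ± 0.19 for Fdps on the 19 arrays and did not pass. Within slides 1, 2 and 3, with all 24 arrays, the median difference of the 8 was 0.05, 0.04 and 0.58. The median of all genes there was -0.29, -0.16 and 0.57. In slide 3 the medians of the enzymes and of all genes were alike, but single enzymes ran from -2.52 for Idi1 to 1.80 for Fdps. The only day 42 array of that slide is replicate 4, which stands apart.

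With all arrays or with the 19, limma called none of the 8 between neighbouring ages up to day 14. Day 4 against day 1 called 0 of 8, with 0 at an unadjusted p under 0.05, where 0.0629% of all genes passed. Without the 5 arrays it again called 0, with 1 enzyme at an unadjusted p under 0.05 and 0.0818% of all genes called. Day 7 against day 4 called 0 of 8 in limma, with 4 at an unadjusted p under 0.05 and 0.00629% of all genes called. Without the 5 arrays it called 0, with 1 at an unadjusted p under 0.05 and 0.0503% of all genes. That enzyme was Cyp51 (-0.42 ± 0.12, unadjusted p = 0.00284, adjusted p = 0.49). It was the 1 enzyme of the 8 whose day 7 arrays lay below its 3 day 4 arrays without overlap, as for 3.03% of all genes. The median differences over the 8 were -0.28 and -0.51 with all arrays, and -0.25 and -0.30 without the 5. All genes had a median of -0.23 for day 7 against day 4 with all arrays. Day 14 against day 7 called 0 of 8 as well, with 0 at an unadjusted p under 0.05, at ages where 6.04% of all genes were called higher and 5.54% lower. With the 19 arrays 2 had an unadjusted p under 0.05 and 0 were called, while 20.5% of all genes were called higher and 18.1% lower. Cyp51 came nearest there, with -0.27 ± 0.10 and adjusted p = 0.0513. When day 14 replicate 5 was left out too, Sqle fell at day 14 against day 7 (-0.51, adjusted p = 0.0362).

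On the 19 arrays the enzymes often lay on the same side of their age means. All 8 were below their age means on day 1 replicate 2, day 14 replicate 3 and day 42 replicate 3, and all 8 above on day 4 replicate 5, day 14 replicate 1 and day 42 replicate 2. Day 14 replicate 3 had the lowest median deviation, of -0.26, and day 7 replicate 5 the highest, of 0.37. These arrays share their signal scale with every gene on them, so the counts are a description.

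Of the other enzymes of the pathway, 11 from a list of textbook members are reported, all tested. At day 42 against day 14 their median difference was 0.53, with 10 of 11 positive, and 0 were called by limma. On the 19 arrays 2 rose and 0 fell, namely Sc5d, which desaturates the ring (0.49 ± 0.12, adjusted p = 0.0137), and Hsd17b7, a sterol ketone reductase (0.47 ± 0.15, 0.0465). Of all genes, 6.73% were called higher and 6.82% lower there. At day 14 against day 1, 3 fell and 1 rose with all arrays, with a median of -0.51, where 16.5% of all genes were called lower and 10.9% higher. With the 19 arrays 5 fell and 1 rose, with a median of -0.20, against 20.1% lower and 21.2% higher. In the fit to all arrays Mvk (-1.17 ± 0.37, adjusted p = 0.0225) and Mvd (-1.27 ± 0.42, 0.0277), which act on mevalonate and its phosphates, fell, and so did Dhcr7, a late reductase of the sterol ring (-1.17 ± 0.37, 0.0222). These sizes include the day 1 arrays that stand apart. The highest mean level of the 11 on a day 1 array was 1.86 with all arrays and 1.05 without the 5. Sc5d was the 1 that rose (0.69 ± 0.14, 0.000939). It was also the enzyme of the 11 that rose at day 14 against day 7 (0.61 ± 0.14, adjusted p = 0.00508) and at day 42 against day 1 (1.08 ± 0.15, 7.52e-06).

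**Figure D4:**
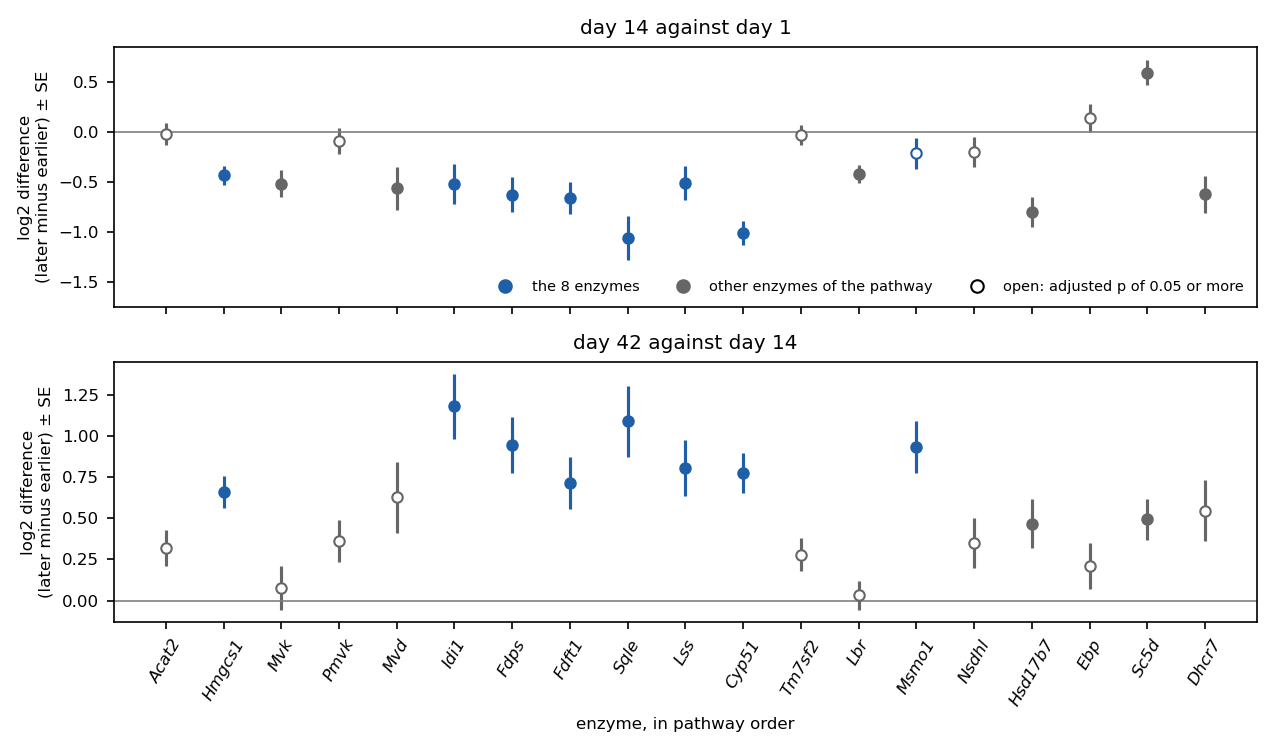
Log2 difference ± SE (vertical axis, later minus earlier) of 19 cholesterol synthesis enzymes in pathway order (horizontal axis) on the 19 arrays, for day 14 against day 1 (top) and day 42 against day 14 (bottom). Blue marks the 8 enzymes and grey the 11 others, and open symbols have an adjusted p of 0.05 or more. In the bottom panel the 8 blue symbols are filled, with 2 of the 11 grey ones, and in the top panel Sc5d is the filled symbol above 0.

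Among 15 genes of sterol sensing, Insig1, the sterol-dependent anchor of Scap, rose at day 42 against day 14 with all arrays (0.99 ± 0.22, adjusted p = 0.0108) and without the 5 (0.99 ± 0.15, 0.000499). The other 14 did not pass in either fit. Of all genes, 2.18% were called higher and 1.51% lower with all arrays, and 6.73% and 6.82% without the 5. The lowest, median and highest levels of Insig1 were -1.59, -1.38 and -1.23 at day 42 and -2.73, -2.37 and -2.16 at day 14, so the groups did not overlap. The share of all genes without overlap in that direction was 7.64% with all arrays and 10.9% without the 5. Insig1 also rose at day 42 against day 1 (0.87 ± 0.22, adjusted p = 0.00431), and at day 14 against day 1 it had -0.13 ± 0.21 (0.653). Mylip, a sterol-responsive ubiquitin ligase, rose at day 14 against day 7 (1.00 ± 0.20, adjusted p = 0.00172) and at day 42 against day 1 (1.03 ± 0.22, 0.000815). In these comparisons 1 and 2 of the 15 were called higher with all arrays, against 6.04% and 13.0% of all genes. Srebf2 had 0.61 ± 0.33 at day 42 against day 14 (adjusted p = 0.436). At day 14 against day 1 limma called it lower with all arrays (-0.85 ± 0.31, 0.0444), where 16.5% of all genes were called lower. That fit includes the 2 day 1 arrays that stand apart. The median of the 15 genes there was -0.06 with all arrays and 0.05 without the 5. Of 13 genes of cholesterol uptake and transport, 0 passed between days 14 and 42 in either fit, with a median of 0.05 with all arrays and -0.16 without the 5. Of the 8 tested genes of other mevalonate branches, 0 passed between days 14 and 42 with all arrays, and without the 5 Nus1 rose and Fntb fell. At day 42 against day 1, Fntb, a prenyltransferase subunit (-0.97 ± 0.35, adjusted p = 0.0436), and Pdss2, of the ubiquinone tail (-0.44 ± 0.15, 0.0318), fell. In that fit 13.7% of all genes were called lower.

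Among genes that store, oxidise or export cholesterol, 9 were tested. Of these, 6 rose and 0 fell at day 42 against day 1 with all arrays, and 5 rose and 0 fell at day 14 against day 1, where 13.0% and 10.9% of all genes were called higher. With the 19 arrays 7 rose in each of these comparisons, against 22.6% and 21.2% of all genes. At day 14 against day 7, 2 of the 9 rose with all arrays and 8 on the 19, against 6.04% and 20.5% of all genes. Ch25h, a cholesterol hydroxylase, rose at day 14 against day 7 (2.10 ± 0.25, adjusted p = 1.47e-05) and again at day 42 against day 14 (1.46 ± 0.26, 0.00201). Cyp27a1, the mitochondrial sterol hydroxylase, rose at day 14 against day 7 (1.54 ± 0.21, adjusted p = 3.96e-05). Apoe, Nceh1, Abca1 and Cyp7b1 rose at day 42 against day 1 by 1.18, 1.01, 0.99 and 0.67. Of 12 fatty acid synthesis genes, which share SREBP control, 5 rose and 0 fell at day 42 against day 14 with all arrays, with a median over the 12 of 0.81, where 2.18% of all genes were called higher. They were Acaca and Fasn, which build fatty acids, Scd1, which desaturates them, Acss2, which makes acetyl-CoA, and Me1, which makes NADPH. Acaca had 1.12 ± 0.24 (adjusted p = 0.00835), Scd1 1.12 ± 0.22 (0.00382), Fasn 1.17 ± 0.33 (0.0462), Acss2 1.06 ± 0.30 (0.0473) and Me1 0.86 ± 0.20 (0.015). The 19 arrays, with 6.73% of all genes called higher, gave 7 rises and 1 fall, of Scd2 (-0.34 ± 0.11, 0.0441). At day 42 against day 1, 6 of the 12 rose (8 on the 19 arrays), with the largest difference in Thrsp, a lipogenic gene that fat also expresses (4.80 ± 0.77, 4.6e-05), and Scd1 (2.47 ± 0.22, 2.04e-08). On the 19 arrays the summed fat markers were 23.6 to 349.6 at day 42 and 2.99 to 19.0 at day 14. The part of nearby fat in the rises of any of the 12 genes was not tested.

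Markers of cell types moved over the same ages, and their part in these results was not tested. For the counts at day 42 against day 14, 2.18% of all genes were called higher and 1.51% lower with all arrays. On the 19 arrays these shares were 6.73% and 6.82%. The summed level of 12 alveolar type 2 markers, in units of the 75th percentile of the array, was 1063 to 2288 at day 42 and 1059 to 1244 at day 14, where 2288 is day 42 replicate 4 and the other 3 had 1063 to 1302, with 0 of 12 called and a median log2 difference of 0.30. On the 19 arrays that median was 0.06, again with 0 called. All 12, Sftpc and Sftpb among them, were well above background on each of the 24 arrays of this tissue labelled lung. The sum of 8 macrophage markers was 160.2 to 303 at day 42 and 123 to 150.1 at day 14, and 2 of 8 rose, 4 of 8 without the 5 arrays. Fabp4 and Pparg of that list are expressed in fat too. The sum of 7 markers of fat was 13.3 to 349.6 at day 42 and 2.99 to 19.0 at day 14, with 1 of 7 called higher, and Lep, the eighth, was well above background on 1 array of 24. Among the day 42 arrays the fat sum was 349.6 on replicate 1, 47.9 on replicate 2, 23.6 on replicate 3 and 13.3 on replicate 4. Of 5 red cell precursor markers 4 fell at day 42 against day 14, with sums of 254 to 577 at day 42 and 533 to 658 at day 14. The 577 is day 42 replicate 4, and without it the day 42 sums were 254 to 369 and did not overlap those of day 14. All 5 fell in the fit to the 19 arrays. Of 12 proliferation markers 0 were called between days 14 and 42. At day 14 against day 1, 11 fell with all arrays, where 16.5% of all genes were called lower. Their sums were 16.9 to 40.8 at day 14 and 111 to 162 at day 1, and without day 14 replicate 5 the day 14 sums were 16.9 to 17.9. Between days 14 and 42 none of the 7 alveolar type 1, 6 club and ciliated, 7 endothelial, 8 fibroblast or 7 cardiac muscle markers was called with all arrays. Without the 5 arrays 2 of the club and ciliated markers rose, and 4 fibroblast markers and 1 endothelial marker fell. The sum of the 7 cardiac muscle markers was 899.6 on day 1 replicate 2 and 28.7 to 106.5 on the other day 1 arrays. That array is 1 of the 3 day 1 arrays among the 19. Day 14 replicate 3 had the highest cardiac and fat sums of its age, 247.7 and 19.0. Of 4 tested sex-linked genes 0 were called in either fit. Xist and Ddx3y were each well above background on 10 of the 24 arrays. With all arrays the median of the 4 was 3.49 at day 7 against day 4 and -1.96 at day 14 against day 7. The lack of calls therefore does not show that the ages were alike in sex.

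Likeness to the enzymes was measured as the root mean square difference between the centred levels of a gene and the median of the 8 over the arrays. Over all 24 arrays the 8 nearest genes outside the set were Akr1b8, Ddx21, Slc20a1, Pilra, Hsd17b12, Aoah, Riox2 and Setd6, at 0.169 to 0.209, where the median of all genes was 0.556. The enzymes themselves were spread on this measure, with Msmo1 at 0.254 and Idi1 at 1.17. Over the 19 arrays, a choice made after seeing the data, 6 of the 8 nearest were Ptgr1, Pxylp1, Akr1b8, Otud3, 1700037C18Rik and Slc20a1, at 0.169 to 0.199, where the median of all genes was 0.469. There the enzymes lay between 0.096 for Fdps and 0.331 for Idi1. On both sets of arrays the enzymes form the median that they are measured against, so their closeness to it is partly built in. The lists share 2 genes, 25% of each, Akr1b8 and Slc20a1.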

How the data were processed

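Total RNA of whole lung was measured on 24 1-colour Agilent arrays with Cy3, on 3 slides of 8. Per the file headers, the authors' scanner files came from version 10.7.3.1 of Agilent Feature Extraction, while the submitters' processing notes give 10.7.1.1. The deposited processed signal is an intensity on a linear scale, already background-corrected by that software. The authors' deposited series table holds log2 values whose processing is not given in the sources used here.

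From the scanner files, control spots and outlier flags were left out, spots of 1 probe were averaged, and log2 of the signal minus the 75th percentile of its array was taken. A probe had to be well above background on at least 4 arrays, and the probe with the highest mean stood for its gene. One linear model over the 5 ages was fitted to all 15895 genes with limma (version 3.58.1, R 4.3.3), with empirical Bayes (prior df 2.97) and Benjamini-Hochberg adjustment over all genes at 0.05. The fit was tested on simulated data. Over the comparisons it found 34% to 44% of 2-fold changes and 77% to 91% of 4-fold changes, with 0 called in the wrong direction. An enzyme that did not pass may therefore still have changed by 2-fold. The simulated noise was independent between genes, at the spread of all 24 arrays, with few genes changed and no shift shared by an array. The rates hold for that setting only. The fit to the 19 arrays, with a typical SD of 0.19 against 0.40 on the log2 scale, was not simulated. The number of arrays limits the precision. Promoters came from RefSeq.

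The 8 enzymes and the lists of other genes were chosen with earlier results of these data known. Genes outside the 8 were named by a rule: up to 6 of each list past the test in any comparison but day 14 against day 1, by size, and the 8 nearest by likeness. Mvk, Mvd, Dhcr7, Hsd17b7, Srebf2, Nus1 and Scd2 were named after their values were seen. Some genes of the pathway are not reported here. The comparison of day 14 with day 1 and the likeness over 19 arrays were likewise chosen after seeing the data. Alternatives tried were other scalings and background corrections, the authors' table, other filters and probe choices, slide and replicate blocks, and arrays left out. Replicate numbers from the labels were checked for pairing. For day 42 against day 1 all 4 same-numbered pairs had deviations from their age means that correlated (0.38 to 0.88). Both arrays numbered 4 are among the 5 that stand apart. The age means include those 5, which shifts the deviations of the other arrays of that age together. A pairing cannot be told apart from that shift. At day 4 against day 1 the correlations ran from -0.85 to 0.60.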

Additional observations from a re-analysis of the deposited data

Results flagged for a closer look

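In 4 of the 40 groups of 1 enzyme at 1 age, 1 array lay far from the others by Dixon's critical value, which chance passes in about 1 group in 20. The level of Hmgcs1 on day 1 replicate 4 was 2.60, and the other 4 arrays of that age had 3.84 to 4.34. On the same array Cyp51 was at -2.78, and the other 4 had -1.36 to -0.87. Idi1 was at 0.13 on day 42 replicate 4, and the other 3 arrays had 2.75 to 3.14. These 3 values are on arrays that stand apart in signal. Cyp51 was at -2.11 on day 7 replicate 3, which is not one of them, and the other 4 arrays had -1.76 to -1.65.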

How the results depend on the processing

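At day 42 against day 14, where 2 of the 8 enzymes passed, 8 passed without the 5 arrays and 8 without 6 (day 14 replicate 5 left out too), 5 with quantile normalization, 4 in the authors' table (Fdps, Fdft1 and Lss gained, Msmo1 lost, adjusted p = 0.0604) and 1 (Sqle) with only the 2 ages fitted; the fits that leave out 1 array gave 2 to 5. No sign of an enzyme changed in this comparison. At day 42 against day 1, where 1 passed, 0 passed with median scaling (Msmo1, adjusted p = 0.0584) and 0 with only the 2 ages (0.0582), 2 without the 5 arrays and 2 without the 6, and 1 to 2 with 1 array left out. At day 14 against day 1, where 4 passed, 7 passed without the 5 arrays and 2 to 4 with 1 array left out, Lss was lost with only the 2 ages (0.0572), and Idi1 turned from 0.45 to -0.52 without the 5, a call not made without the 6. At day 14 against day 7, 1 (Sqle) passed without the 6 arrays. The F-test called 8 without the 5 or the 6 arrays. The replicate block gave 0, 0, 0, 2, 1 and 4 enzymes in the 6 comparisons and 5 in the F-test, and changed no call of an enzyme. Outside day 42 against day 1, 4 of 24 pairs of arrays with the same number correlated above 0.1. In no comparison do the labels link the samples of a pair by more than that number.

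Counts over all genes moved by over 1.5 times. For day 42 against day 14, 587 genes became 2154 without the 5 arrays, 2261 without the 6, 1525 in the authors' table, 973 with quantile normalization, 206 with only the 2 ages and 359 without day 42 replicate 2. For day 14 against day 7, 1840 became 6125, 7103, 3561, 2856 and 4932 under the first 5 of these. For day 42 against day 1, 4251 became 7408 without the 5, 7702 without the 6 and 2175 with only the 2 ages, and for day 14 against day 1, 4353 became 6564, 7399 and 2423. The F-test called 8564 and 9071 without the 5 and the 6, against 5052. With each probe tested, 2.75% of 36467 probes passed at day 42 against day 14, where 3.69% of genes did. For day 4 against day 1, 10 became 260 without the 6 arrays, 99 in the authors' table, 32 with quantile normalization, 4 with median scaling, 2 with normexp and 4 to 49 with 1 array left out. For day 7 against day 4, 1 became 8 without the 5, 26 without the 6, 20 in the authors' table, 6 with quantile normalization, 3 with normexp and up to 13. The causes were not tested. The second Fdft1 probe, above background on 2 arrays, limits Fdft1 to 1 probe.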
